A study of Rattus norvegicus with 4 samples.

Results

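The same total X-ray dose of 35 Gy to the rat esophagus, given as 5 daily fractions of 7 Gy (library 5x7Gy_7d) or as 1 fraction of 35 Gy (35Gy_7d), was compared at day 7 in the mural, glial, satellite, lymphatic endothelial, lymphoid and dendritic-like cells. Barcodes with at least 500 UMIs (unique molecular identifiers, 1 per captured RNA molecule) and at most 20% mitochondrial UMIs were taken. The rule kept 9082 barcodes of the fractionated library and 9744 of the single-dose library, 18826 of the 40724 that it kept in all 4 libraries and of the 45348 deposited. All animals were male Sprague-Dawley rats, 6 weeks old, without any transgene. The esophagi of 5 rats per group were pooled, kept cold in storage solution, shipped within 48 hours and dissociated into cells for droplet sequencing, so each group is 1 library and the differences have no replicate check. An unirradiated library (0Gy_7d, 5 fractions of 0 Gy) and a fractionated library from day 14 (5x7Gy_14d) are the other two. The labels do not say whether the days run from the first or from the last fraction. No p-value is given anywhere: the 95% intervals are exact and cover counting error only, not differences between rats or between libraries. For gene levels they also leave out differences between cells.

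Mural cells are the smooth muscle cells and pericytes that wrap vessels, with smooth muscle of the organ wall among them. Pericytes hold capillaries together and, when exposed to inflammatory cytokines, make chemokines through the transcription factor NF-kappaB. Glial cells of the wall are Schwann cells along nerve fibres and enteric glia. Satellite cells are the stem cells of striated muscle, which forms much of the rat esophagus wall. Lymphatic endothelium drains fluid and makes Ccl21, the chemokine that guides dendritic cells to lymph nodes, where they present antigen on MHC class II to T cells.

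The libraries differed in depth and in much besides the schedule, and this bears on every result here. The deposited matrices held 59805782 UMIs in the fractionated and 109618791 in the single-dose library, against 97207745 at 0 Gy and 80574775 at day 14. After the filters and removal of called doublets, 8877 and 9462 cells were analysed, and 34 barcodes occurred in both libraries. Median depth per cell in the 6 classes was 1026 to 2151 UMIs in the fractionated library and 2010 to 6816 in the single-dose library. Over all barcodes, the immediate-early gene Fos was at 7.74 CPM (its part of all UMIs counted, scaled to the same total in each library or class) in the fractionated library, against 341 in the single-dose library, 7641 at 0 Gy and 10070 at day 14. Cxcl1, a neutrophil chemokine, was at 1.27 against 191, with 1502 at 0 Gy and 1524 at day 14. Actb, the cytoskeletal actin present in nearly all cells, was at 792 against 2444. The fractionated day 7 library was thus the lowest of the 4 for these genes as a whole, and schedule, tissue handling and library preparation cannot be told apart with 1 library per group. The makeup of the whole also differed: epithelial cells, counting unnamed clusters that expressed epithelial genes, were 71.6% of the fractionated and 32.9% of the single-dose cells, and immune cells 7.45% and 42.5%.

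Lymphatic and glial cells took a smaller share of the fractionated library, dendritic-like cells a larger one by cluster, and the intervals for mural and satellite cells included equal shares. Lymphatic endothelial cells were 18 of 8877 (0.203%, interval 0.12 to 0.32) after fractions and 127 of 9462 (1.34%, 1.12 to 1.60) after the single dose, with 4.69% at 0 Gy and 1.05% at day 14. Their share was 6.62-fold (4.02 to 11.5) lower in the fractionated library, a ratio of 0.151. That ratio was 0.294 when cells were classed by their own markers and 0.271 without the mitochondrial limit. Glial cells were 0.744% after fractions and 1.89% after the single dose, with 4.63% at 0 Gy and 6.97% at day 14, so their share was 2.54-fold (1.91 to 3.43) lower. Mural cells were 4.22% and 4.32%, a ratio of 0.977 (0.847 to 1.13). Satellite cells were 0.879% and 0.920%, a ratio of 0.956 (0.695 to 1.31), and both libraries were far below the 7.35% at 0 Gy. With a stricter filter (at least 1000 UMIs and at most 10% mitochondrial) the mural ratio was 0.676 and the satellite ratio 0.691. The T, NK and innate lymphoid cells, 1 cluster, were 1.33% and 1.69%, a ratio of 0.786 (0.614 to 1.00). The dendritic-like cluster held 453 cells (5.10%) after fractions and 302 (3.19%) after the single dose, against 7 cells at 0 Gy and 20 at day 14, a ratio of 1.60 (1.38 to 1.86). When each cell was instead classed by its own markers, dendritic-like cells were 289 and 371 and the ratio was 0.830, so the direction for these cells depends on how they are counted.

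A share also moves with everything else in the library. Counted only among cells neither epithelial nor immune (1860 and 2330 cells), the ratios were 0.178 for lymphatic, 0.462 for glial, 1.15 for mural and 1.12 for satellite cells. Lymphatic and glial cells were thus lower on both denominators. Among immune cells alone (661 and 4023), T, NK and innate lymphoid cells were 4.49-fold and dendritic-like cells 9.13-fold higher in the fractionated library. Macrophages or monocytes were 25.1% of cells after the single dose and 0.462% after fractions, and neutrophils 10.2% and 0.0789%.

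**Figure D1:**
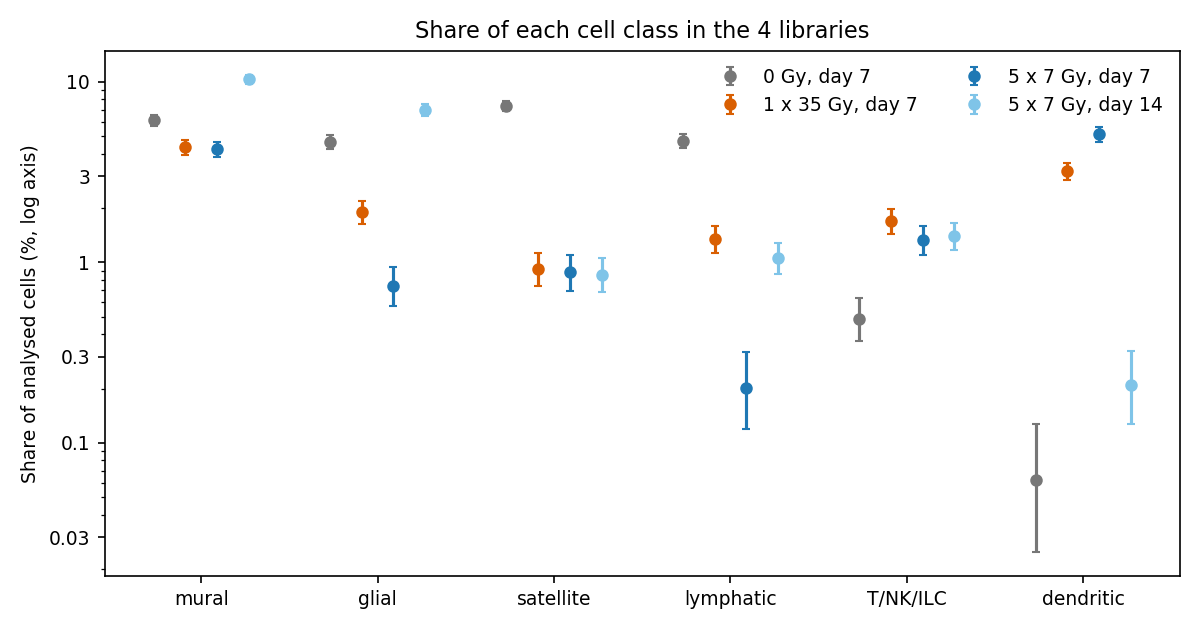
Share of analysed cells (percent, log axis) of the 6 classes in the 4 libraries, points with exact 95% binomial intervals that cover counting error only. Lymphatic endothelial cells are lowest in the fractionated day 7 library (0.203%), and dendritic-like cells are above 3% in both irradiated day 7 libraries against 0.0621% at 0 Gy.

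Within the mural class the balance of its 2 clusters differed. The smooth muscle cluster, led by Myh11, Acta2 and Actg2, held 234 cells (2.64%) after fractions and 193 (2.04%) after the single dose, a ratio of 1.29 (1.06 to 1.57). The pericyte cluster, led by Vtn, Rgs5, Kcnj8 and Higd1b, held 141 (1.59%) and 216 (2.28%), a ratio of 0.696 (0.559 to 0.864). Most mural cells thus came from the smooth muscle cluster after fractions and from the pericyte cluster after the single dose, and the clusters are given separately below. A further cluster with Rgs5, Vtn and the haemoglobin gene Hba-a2 among its leading genes stayed unnamed and is not in the mural class. It held 42 cells after fractions and 47 after the single dose, with 306 at 0 Gy and 342 at day 14. With it the mural ratio was 0.975 (0.852 to 1.12). All 15 mural markers were detected in both libraries. The summed epithelial markers in mural cells were at 1758 CPM after fractions and 522 after the single dose, and the fibroblast markers at 6803 and 4028, while macrophage markers were at 62.4 and 530. These sums move with the libraries' makeup, and their part in the mural differences was not tested.

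Counting a gene as different when the interval bound nearest to 1 was past 2-fold, 177 of 6012 genes with at least 50 UMIs were higher in mural cells after fractions (2.94% of genes) and 216 were lower (3.59%). Of these, 122 and 155 were at least 0.5 times as high in mural cells as in the highest other named class, a requirement set because RNA set free by other cells enters every droplet. In the smooth muscle cluster 101 of 4019 were higher (2.51%) and 165 lower (4.11%), and in the pericyte cluster 119 of 3733 were higher (3.19%) and 158 lower (4.23%).

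The pericytes of the single-dose library were rich in chemokine and cytokine transcripts that were scarce or absent after fractions. Cxcl1 was at 1888 CPM (2132 UMIs) in pericytes after the single dose and at 0 UMIs after fractions, with 3592 at 0 Gy and 1572 at day 14. Against a floor of 3 counts in the cluster, it was 215-fold lower, with an interval bound nearest to 1 of 175-fold. Ccl7, a monocyte chemokine, was at 1595 CPM after the single dose and 0 UMIs after fractions, with 428 CPM at 0 Gy and 223 at day 14. Against the same floor it was 182-fold lower, with a bound of 148-fold. Ccl2, which draws monocytes through the receptor Ccr2, was at 2606 after the single dose, 84.7 after fractions, 2058 at 0 Gy and 916 at day 14, a log2 ratio of -4.94 (-5.53 to -4.42). All 3 chemokines were thus present in the other 3 libraries, and the fractionated day 7 library was the low one. Il6, the cytokine that drives the acute phase response, had 2 UMIs against 335, a ratio of 50.8 (13.9 to 421) in favour of the single dose. Sod2, the mitochondrial superoxide dismutase and a target of NF-kappaB, was at 4731 CPM after the single dose, 131 after fractions, 412 at 0 Gy and 330 at day 14. Here the single-dose library was the one that stood apart, 36.0-fold (26.9 to 49.4) above the fractionated one. Angptl4, a lipoprotein lipase inhibitor, was at 1332 after the single dose and at 55.5, 212 and 55.1 after fractions, at 0 Gy and at day 14.

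The list of NF-kappaB targets and inflammatory mediators had 34 genes, of which 24 had at least 20 UMIs in pericytes. None was at least 2-fold higher after fractions and 16 were lower, where 2.87% of the 6473 genes with at least 20 UMIs were higher and 2.67% lower. The list's median log2 ratio was -3.09, against -0.02 for all those genes. Cebpd, a transcription factor of the acute phase, was at 196 CPM after fractions and 1393 after the single dose, and Icam1, which leukocytes adhere to, at 20.4 and 138. Members that did not pass 2-fold included Nfkb1 and Csf1. Nfkb1, a subunit of the factor itself, had a log2 ratio of -1.01 (-1.63 to -0.44), and Csf1, the macrophage growth factor, had one of 0.11 (-0.67 to 0.84). In the smooth muscle cluster 15 members were measured, 0 higher and 7 lower, with a median of -1.84, where 2.36% of 6666 genes were higher and 2.75% lower. Over the whole mural class 25 were measured, 0 higher and 16 lower, with a median of -2.97, where 2.82% of 8363 genes were higher and 2.79% lower. In pericytes 16 of the 24 members passed the free RNA requirement, with a median of -3.74. Only 3 of the 15 passed it in the smooth muscle cluster (-1.79), and 14 of the 25 over the class (-3.86). For the class as a whole, Cxcl1 and Ccl7 were below the level of an unnamed cluster of 583 single-dose and 11 fractionated cells (2370 and 2593 CPM), which was led by Cxcl6, Ccl11, Pla2g2a and Lcn2. In the pericyte cluster both were above 0.5 times the level of every other cluster with at least 100 cells in the single-dose library. The part of free RNA from that unnamed cluster was not tested. When cells were thinned to 500 UMIs each, 1.07% (0.291 to 2.71) of mural cells after fractions and 16.9% (13.4 to 20.9) after the single dose had a Ccl2 UMI, against 2.67% and 37.7% unthinned. In blood endothelial cells, taken for comparison, the thinned shares were 0.334% and 5.01%, with median depths of 1776 and 4172 UMIs. The lower share of cells with Ccl2 after fractions was thus not particular to mural cells.

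**Figure D2:**
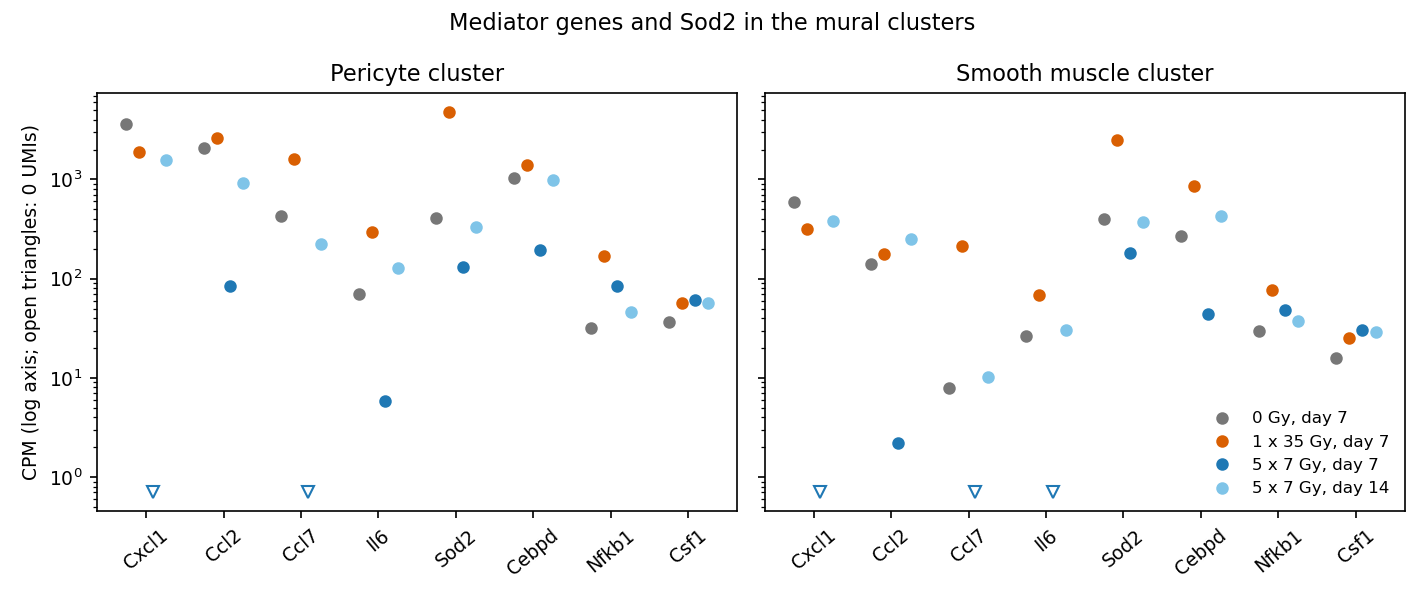
Level (CPM, log axis) of 8 mediator genes in the pericyte and the smooth muscle cluster of the 4 libraries, with open triangles for 0 UMIs. In pericytes Cxcl1 and Ccl7 are at 0 UMIs after fractions and at 1888 and 1595 CPM after the single dose, while Csf1 is at 61.3 and 56.7 CPM.

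The promoters of 4 of these mediators are shown because they hold the letters GGG, then any 2 bases, then TTTCC, a form of the site that NF-kappaB binds, in the 250 bases before the start of the gene. Sequences are from RefSeq (build GRCr8, all on the minus strand of the chromosome), printed 5′ to 3′ along the gene with 1 match in each in capitals.
Cxcl1, chr14:17479371-17479430: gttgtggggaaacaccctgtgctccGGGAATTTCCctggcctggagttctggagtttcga
Cxcl2, chr14:17467295-17467354: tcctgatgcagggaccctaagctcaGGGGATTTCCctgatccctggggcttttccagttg
Cxcl6, chr14:17596471-17596530: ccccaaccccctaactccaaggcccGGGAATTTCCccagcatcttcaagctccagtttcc
Il6, chr4:5894609-5894668: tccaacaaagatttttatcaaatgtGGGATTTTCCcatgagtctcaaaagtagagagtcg
Searched on both strands, these letters were in 10 of the 26 mediator promoters in the table (38.5%) and in 7 of the 12 promoters of mediators that were at least 2-fold lower in pericytes after fractions, against 1.37% of all 27457 promoters. The letters TGANTCA, a form of the AP-1 site, were in 6 of the 26 (23.1%) and in 6.99% of all. The mediator list was drawn up from known NF-kappaB targets, so the match describes the list and is not evidence of binding in these cells.

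Matrix genes differed in direction between the 2 mural clusters, a contrast that was not tested. In pericytes, 4 of 22 matrix genes were higher after fractions and 0 lower, with a median of 0.49, where 2.87% of all genes with 20 UMIs were higher and 2.67% lower. Postn, a matricellular protein, was at 172 CPM after fractions and 7.08 after the single dose, with 46.8 at 0 Gy and 67.6 at day 14, a log2 ratio of 4.61 (3.53 to 5.88). Eln, elastin, was at 590 and 93.0, with 317 at 0 Gy and 120 at day 14. Col1a1 was at 1259 and 435, and Col3a1 at 9472 and 3381, both fibrillar collagens that fibroblasts also make in quantity. Postn was also a leading gene of fibroblast clusters. Fibroblasts were too few to be compared in the free RNA requirement, and the part of their RNA in these levels was not tested. The smooth muscle cluster went the other way, with 0 of 21 matrix genes higher, 5 lower and a median of -0.82, where 2.36% of all genes were higher and 2.75% lower. Its Tnc, a matrix protein of injured tissue, was at 15.3 CPM after fractions and 253 after the single dose, with 4.55 at 0 Gy and 13.9 at day 14, but other cells of the single-dose library held more of it. Col4a2, of the basement membrane, was at 19.6 and 101. The TGF-beta targets were lower more often than higher in that cluster, 4 of 14 past 2-fold against 0, with a median of -1.36. Over the mural class 3 of 15 measured members were higher in any degree and 12 lower. Tgfb3, a ligand of the pathway and the 1 member past 2-fold higher, was at 64.9 CPM after fractions and 19.3 after the single dose.

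Interferon-stimulated genes had a median log2 ratio of 1.07 over 14 measured in pericytes, of which 11 were higher and 3 lower in any degree, but only 1 was past 2-fold by its interval. That gene, Mx1, an antiviral GTPase, had 21 UMIs after fractions and 13 after the single dose, a log2 ratio of 2.41 (1.35 to 3.53). Isg15 was at 172 CPM after fractions, 79.7 after the single dose, 73.0 at 0 Gy and 186 at day 14. Ifi27l2b, an interferon-inducible gene outside the list, was at 2261, 334, 289 and 1063 CPM in the same order, so both irradiated fractionated libraries were above the other two for both genes. Of 17 contractile genes measured in pericytes 7 were higher and 0 lower, among them Acta2 at 2176 and 706 CPM (2.87% of all genes higher and 2.67% lower). Acta2 was under 0.5 times its level in the smooth muscle cluster, so the part of free RNA in that difference was not tested.

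The smooth muscle cluster held more Atp1b2, Pln and Mt3 after fractions and less Des, Ednrb, Procr and Spp1. Atp1b2, a subunit of the sodium-potassium pump, was at 661 CPM after fractions and at 98.3 after the single dose. At 0 Gy it was at 202 and at day 14 at 215, so the fractionated day 7 library was the high one. Pln, phospholamban, the brake on the calcium pump of the sarcoplasmic reticulum, was at 1765 and 486, with 1092 at 0 Gy. Mt3, a metal-binding metallothionein, was at 628 and 58.0, with 431 at 0 Gy and 620 at day 14, but it was also higher in the fractionated library as a whole, at 166 CPM against 48.2. Des, the muscle intermediate filament desmin, was lower, at 1566 and 4089. Of 20 contractile genes in this cluster 2 were higher and 4 lower, against 2.36% and 2.75% of all genes, with a median of 0.19. Other genes lower after fractions were Ednrb, the endothelin B receptor, with 3 UMIs against 464, and Procr, the receptor of protein C, with 3 against 524. Spp1, osteopontin, had 1 UMI against 459. These 3 genes were below 100 CPM at 0 Gy and at day 14 (Ednrb 2.27 and 15.8, Procr 96.0 and 99.1, Spp1 15.9 and 26.8), so the single-dose library was the highest for all 3. The fractionated library was also below 0 Gy for Procr (6.55 CPM) and Spp1 (2.18 CPM). Crem, a cyclic AMP response factor, had 2 UMIs against 249. Fos was at 54.5 and 845 CPM in this cluster, with 12690 at 0 Gy and 12390 at day 14.

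Pericyte genes were at similar or higher levels after fractions. Of 15 on the list, 14 were higher after fractions to some degree over the mural class, with 1 past 2-fold. Rgs5, which limits G protein signalling, was at 949 CPM and 508, and Cox4i2, a respiratory chain subunit induced by low oxygen, at 1118 and 537. Pdgfrb, the receptor that pericytes need to be recruited, was at 482 and 465 CPM, a log2 ratio of 0.05 (-0.12 to 0.22). The p53 targets, which radiation induces, had a median of 0.01 over 19 measured in mural cells. Of these 0 were higher and 2 lower, where 2.82% of all genes were higher and 2.79% lower. In the smooth muscle cluster the median was -0.49, with 0 of 18 higher and 2 lower (2.36% and 2.75% of all genes). In pericytes it was 0.24, with 1 of 17 higher and 2 lower (2.87% and 2.67% of all genes). Cdkn1a, the cell cycle inhibitor p21, was at 262 and 285 CPM in mural cells, with 651 at day 14.

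**Figure D3:**
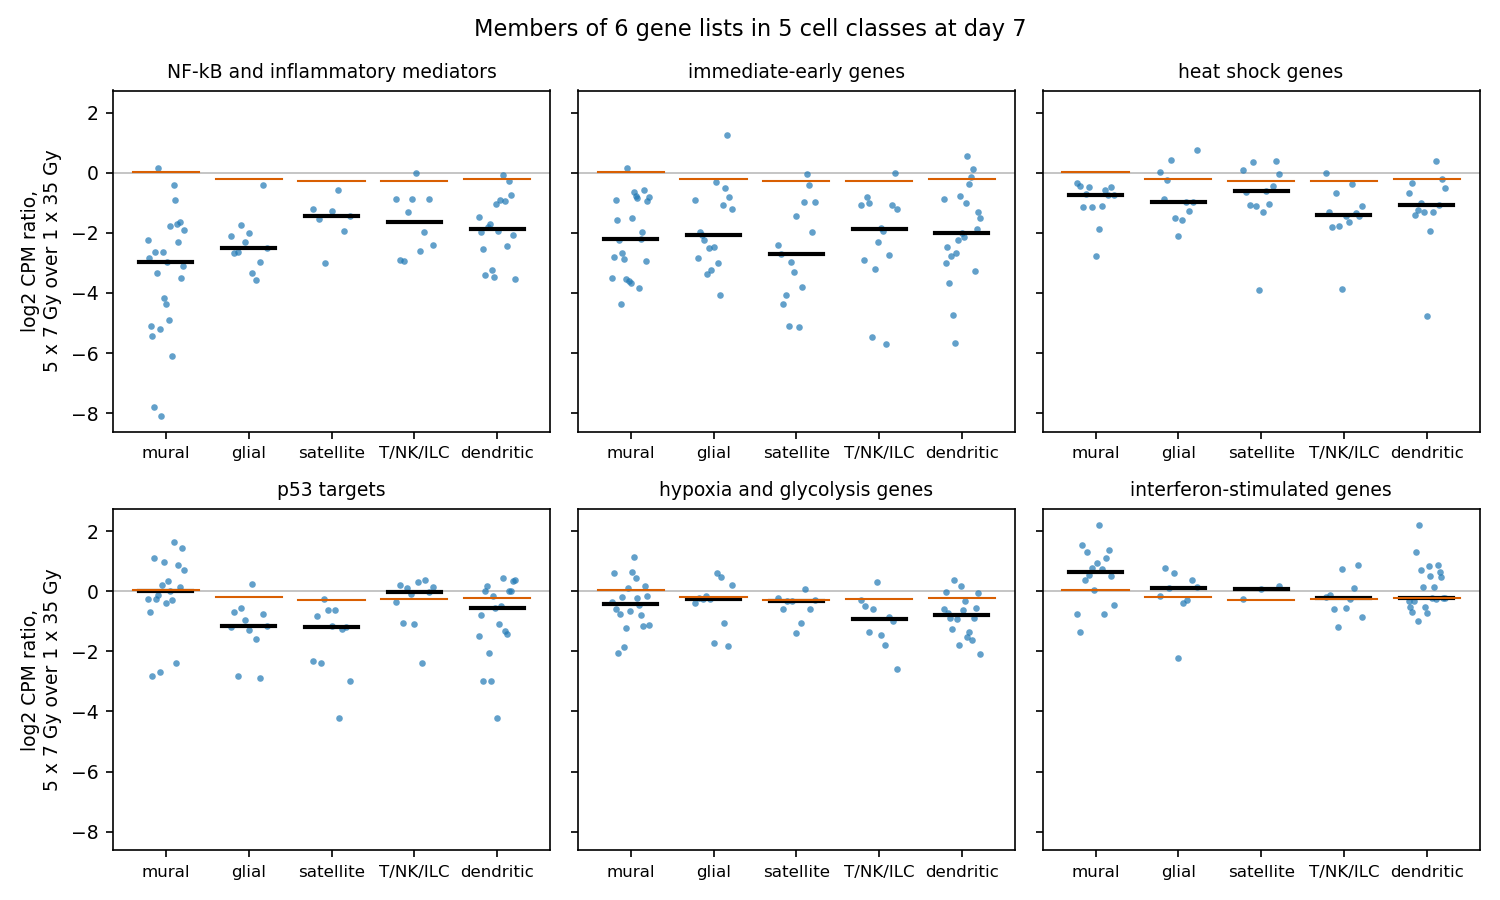
Log2 ratio, fractionated over single dose, of the members of 6 gene lists in 5 classes; each point is a gene with at least 20 UMIs, the black bar is the list's median and the orange bar the median of all such genes in the class. The medians of the immediate-early genes lie below the orange bar in all 5 classes, from -2.70 in satellite to -1.88 in T, NK and innate lymphoid cells.

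The low level of immediate-early genes was common to all classes with enough cells. Their median was -2.21 in mural, -2.06 in glial, -2.70 in satellite, -1.88 in T, NK and innate lymphoid and -2.01 in dendritic-like cells, while the median of all genes lay between -0.27 and 0.03. Of those measured, 14 of 23, 6 of 17, 9 of 15, 7 of 14 and 12 of 21 were past 2-fold lower, and 0 higher. Of all genes with 20 UMIs 2.79%, 1.74%, 2.35%, 1.82% and 3.1% were lower in the same order of classes. These genes answer within minutes to stress and to tissue dissociation, and over the whole fractionated library Fos and Jun were the lowest of the 4. Heat shock genes had medians from -1.40 to -0.62, with 3 of 13 past 2-fold lower in mural, 1 of 11 in glial, 1 of 12 in satellite, 3 of 12 in lymphoid and 5 of 13 in dendritic-like cells, and 0 higher. Schedule and handling of the tissue cannot be told apart in these levels.

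Glial cells took a smaller share after fractions and held less Gfap, Cxcl14 and Fcgr2b. The smaller share was in the cluster with Scn7a, Cdh19 and Lgi4 among its leading genes, as in non-myelinating Schwann cells and enteric glia, with 50 cells after fractions and 159 after the single dose, a ratio of 0.335 (0.239 to 0.463). Vip and Gal, neuropeptide genes of enteric neurons, were also among its leading genes, and its score for neuron markers (3.18) was as high as that for glial markers (3.17). The myelinating cluster, with Mbp, Pllp and Prx among its leading genes, held 16 and 20, a ratio of 0.853 (0.413 to 1.73). With 66 cells in all after fractions, 1579 genes had 50 UMIs, of which 18 were higher (1.14%) and 54 lower (3.42%). After the free RNA requirement 3 and 28 were left, and scaling by the median of ratios gave 27 and 40.

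Gfap, the intermediate filament that glia make when activated, was at 102 CPM (9 UMIs) in glial cells after fractions, 1087 (467 UMIs) after the single dose, 134 at 0 Gy and 208 at day 14. Its log2 ratio was -3.41 (-4.55 to -2.47), and the single-dose library was the high one. Thinned to 500 UMIs, 4.55% (0.947 to 12.7) of glial cells after fractions and 35.2% (28.2 to 42.7) after the single dose had a Gfap UMI, against 12.1% and 58.1% unthinned, and in blood endothelial cells the thinned shares were 0% and 0.125%. Cxcl14, a chemokine, had 2 UMIs against 283, and was at 6.05 CPM at 0 Gy and 30.4 at day 14. Fcgr2b, the inhibitory Fc receptor, was at 625 after fractions, 3321 after the single dose, 13.9 at 0 Gy and 484 at day 14, so it was above 0 Gy in all 3 irradiated libraries. Cd59, which blocks the complement membrane attack complex, was at 375 and 2582, with 329 at 0 Gy and 603 at day 14. Apoe, a lipid carrier, was at 4770 and 11010, with 3062 at 0 Gy.

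Glial lineage genes differed in part. Of 18 measured genes of non-myelinating and enteric glia 0 were higher and 2 lower (Gfap and Apoe), with a median of 0.12, where 0.746% of 3618 genes were higher and 1.74% lower. Sox10, the lineage factor, was at 432 CPM after fractions and 433 after the single dose, a log2 ratio of -0.01 (-0.55 to 0.51). Of 16 measured myelin genes 0 were past 2-fold in either direction, and their median was 0.33. Mbp, myelin basic protein, was at 1295 CPM after fractions and 810 after the single dose. The myelin median was -0.65 when glial cells were classed by their own markers. Cells of the myelinating cluster were a larger part of the glial class after fractions, and their part in these levels was not tested. Over the class the 16 genes summed to 17310 CPM after fractions and 15770 after the single dose. In the larger glial cluster alone 9 myelin genes were measured, with a median of 0.22. Their sum there was 4405 CPM after fractions and 4977 after the single dose. Of 10 measured genes of the repair Schwann cell, 0 were higher and 3 lower, against the same shares of all genes, with a median of -0.87. Gap43, a growth protein of that state, was at 90.9 and 317 (8 and 136 UMIs). The list shares members such as Jun and Ccl2 with the immediate-early and mediator lists. Its median was also -1.025 in mural, -0.54 in satellite, -0.89 in lymphoid and -2.005 in dendritic-like cells. The lower level of the list was thus not particular to glia. The p53 targets had a median of -1.17 over 11 measured, against -0.205 for all genes. Of the 11, 1 was past 2-fold lower, where 1.74% of all genes were. Cdkn1a was at 284 CPM after fractions and 692 after the single dose, with 245 at 0 Gy and 587 at day 14, and Phlda3, which holds back Akt signalling, at 500 and 1122, with 385 at 0 Gy. Fractionated glia were thus near the 0 Gy level for both genes. Mt3 and Cst3, cystatin C, were higher, Cst3 at 12880 and 5673 CPM. Summed neutrophil markers in glial cells were at 56.8 CPM after fractions and 948 after the single dose, and epithelial markers at 1681 and 836. Their part in the glial differences was not tested.

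Satellite cells, 78 and 87 in number, had no measured quiescence or myogenic gene past 2-fold. By their own markers 63 of the 78 (80.8%) after fractions and 84 of the 87 (96.6%) after the single dose were satellite cells, so the cluster was less pure after fractions. Of 1234 genes with 50 UMIs, 11 were higher after fractions (0.891%) and 51 lower (4.13%), and 6 and 32 were left after the free RNA requirement, while scaling by the median of ratios gave 22 and 41. Myf5, a myogenic factor of committed satellite cells, was at 723 CPM after fractions and 619 after the single dose, a log2 ratio of 0.23 (-0.15 to 0.59). Pax7, the factor that defines the cells, was at 58.9 (7 UMIs) and 183 (66 UMIs), with 74.3 at 0 Gy and 279 at day 14, a log2 ratio of -1.64 (-3.01 to -0.51). Of 13 measured quiescence genes and 7 measured myogenic genes none passed 2-fold, where 0.464% of 3019 genes were higher and 2.35% lower, with medians of 0.06 and -0.17. Cpa1, a carboxypeptidase that led this cluster, was at 9445 and 4066 CPM.

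The genes with the strongest contrast in satellite cells included Chi3l1, Spp1, immediate-early genes and metallothioneins, all lower after fractions. Chi3l1, a chitinase-like protein of inflamed tissue, had 0 UMIs against 532, and it was at 6.63 CPM at 0 Gy and 3.03 at day 14. Against a floor of 3 counts it was 58.5-fold lower, with an interval bound nearest to 1 of 47.4-fold. Spp1 had 0 against 285, 31.3-fold lower with a bound of 25.3-fold, and was at 5.75 and 18.2 CPM in the other 2 libraries. Both were thus high in the single-dose library alone. Chi3l1 was at 127 CPM over that whole library and at 0.786 over the fractionated one. The metallothionein Mt2A was at 84.1 and 1814, with 462 at 0 Gy and 1462 at day 14, and Mt1 at 160 and 1390. Of 11 measured p53 targets 0 were higher and 2 lower, where 0.464% of 3019 genes were higher and 2.35% lower. Their median was -1.19, against -0.27 for all genes. Cdkn1a was at 177 CPM after fractions, 397 after the single dose, 343 at 0 Gy and 1196 at day 14. The fractionated day 7 library was the lowest of the 4 for Cdkn1a, and the day 14 library the highest. Summed epithelial markers were at 4962 and 2888 CPM in satellite cells and neutrophil markers at 8.41 and 280, and their part was not tested.

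Lymphatic endothelial cells were too few after fractions for counts of genes, and their values rest on 18 cells. All 11 lymphatic markers with any UMI were detected in both libraries. Ccl21 was at 36840 CPM in lymphatic cells after fractions (1216 UMIs), 93530 after the single dose, 37880 at 0 Gy and 16320 at day 14, a log2 ratio of -1.34 (-1.43 to -1.26). As a part of the lymphatic cells' own UMIs, Ccl21 was thus near its 0 Gy level after fractions and above it after the single dose. Lyve1, a hyaluronan receptor, was at 2757 and 4980, and Reln, a secreted matrix protein, at 424 and 967. Prox1, the factor that sets lymphatic identity, was at 606 (20 UMIs) and 396 (232 UMIs), a log2 ratio of 0.61 (-0.12 to 1.27), and Flt4, the receptor for the lymphatic growth factor Vegfc, at 485 and 256. Mmrn1, a marker of the lineage, was at 4847 and 3140. Prox1, Flt4 and Mmrn1 were thus not among the genes lower after fractions. Over all barcodes Ccl21 was at 22.1 CPM after fractions and 547 after the single dose, which joins fewer lymphatic cells and a lower level in each. Neutrophil markers in these cells summed to 212 and 2867 CPM.

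Among T, NK and innate lymphoid cells, 4 of 16 measured cytotoxic genes were past 2-fold higher after fractions, while 1 of 22 T cell genes was past 2-fold lower. Of 1922 genes 15 were higher (0.78%) and 62 lower (3.23%), and 14 and 28 were left after the free RNA requirement. Scaling by the median of ratios gave 29 higher and 42 lower. None of the 16 cytotoxic genes was past 2-fold lower, where 0.442% of 4070 genes were higher and 1.82% lower, and the list's median was 1.08 against -0.27 for all genes. Ccl5, a chemokine of cytotoxic and memory cells, was at 4927 CPM after fractions, 769 after the single dose, 3409 at 0 Gy and 1684 at day 14, a log2 ratio of 2.68 (2.51 to 2.85). Gzma, the protease granzyme A, was at 416, 56.4, 450 and 84.6 CPM in the same order, and Klrd1, the NK receptor chain CD94, at 461, 86.2, 126 and 129. For Ccl5 and Gzma, fractions were thus near the 0 Gy level and the single dose below it. The Ccl5 UMIs came from 26 of 118 cells after fractions and 10 of 160 after the single dose. Its interval does not cover such differences between cells. Nkg7, of the cytotoxic granule, was at 779 and 309, and Prf1, perforin, at 188 and 70.5. Ccl4, a chemokine on the same list, was lower, at 45.4 and 183, with 1425 at 0 Gy.

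Of 22 measured T cell genes 0 were higher and 1 lower past 2-fold, against 0.442% and 1.82% of all genes. Their median was -0.50, against -0.27 for all genes. Of the 22, 16 were lower in any degree, as were 1269 of the 1922 genes with 50 UMIs, so the lean was largely that of the class. Cd3e was at 649 CPM and 667 in these cells, a log2 ratio of -0.04 (-0.37 to 0.28), Cd3d had a ratio of 0.40 (0.10 to 0.69) and Cd3g one of -0.58 (-1.01 to -0.17). Icos, a costimulatory receptor, was at 578 and 1142, and Tnfrsf9, the activation receptor 4-1BB, at 19.5 (3 UMIs) and 414 (264 UMIs), with 32.9 at 0 Gy and 40.2 at day 14. Ctla4 had 1 UMI against 58, and Foxp3, of regulatory T cells, 9 against 64, a log2 ratio of -0.78 (-1.97 to 0.24). Thinned to 500 UMIs, 22.9% (15.7 to 31.5) of the cells after fractions and 11.2% (6.81 to 17.2) after the single dose had a UMI of Klrd1, Gzma or Nkg7, against 30.5% and 23.1% unthinned. A Ccl5 UMI was found in 21.2% (14.2 to 29.7) and 5.62% (2.60 to 10.4). Any of the 3 Cd3 genes was found in 50% (40.7 to 59.3) and 58.8% (50.7 to 66.5). In blood endothelial cells the shares for these genes were between 0% and 0.0835%, far below those in the lymphoid cluster. At equal depth the intervals for Ccl5 did not overlap, while those for the Cd3 genes and for Klrd1, Gzma or Nkg7 did.

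Il17a, the cytokine of type 17 cells, had 0 UMIs in this cluster after fractions at day 7 and 30 after the single dose (47.0 CPM), while it was at 1843 CPM after fractions at day 14. A count of 0 of 118 cells allows a share of cells with an Il17a UMI of up to 3.08%. The single-dose UMIs came from 8 of 160 cells (5%, 2.18 to 9.61). Thinned to 500 UMIs, the shares were 0% (0 to 3.08) after fractions and 1.88% (0.388 to 5.38) after the single dose. These intervals overlap. Of the type 2 and type 17 list of 32 genes, 9 were measured, none past 2-fold. The mast cell proteases Mcpt2 and Cpa3 had 0 UMIs in this cluster against 280 and 120, and 9 of 11 mast markers were detected after the single dose and 1 of 11 after fractions, with sums of 769 and 6.49 CPM. Macrophage markers summed to 312 and 1932 CPM and neutrophil markers to 208 and 1369. Cells or RNA of other types thus moved with the library here too, and their part was not tested.

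**Figure D4:**
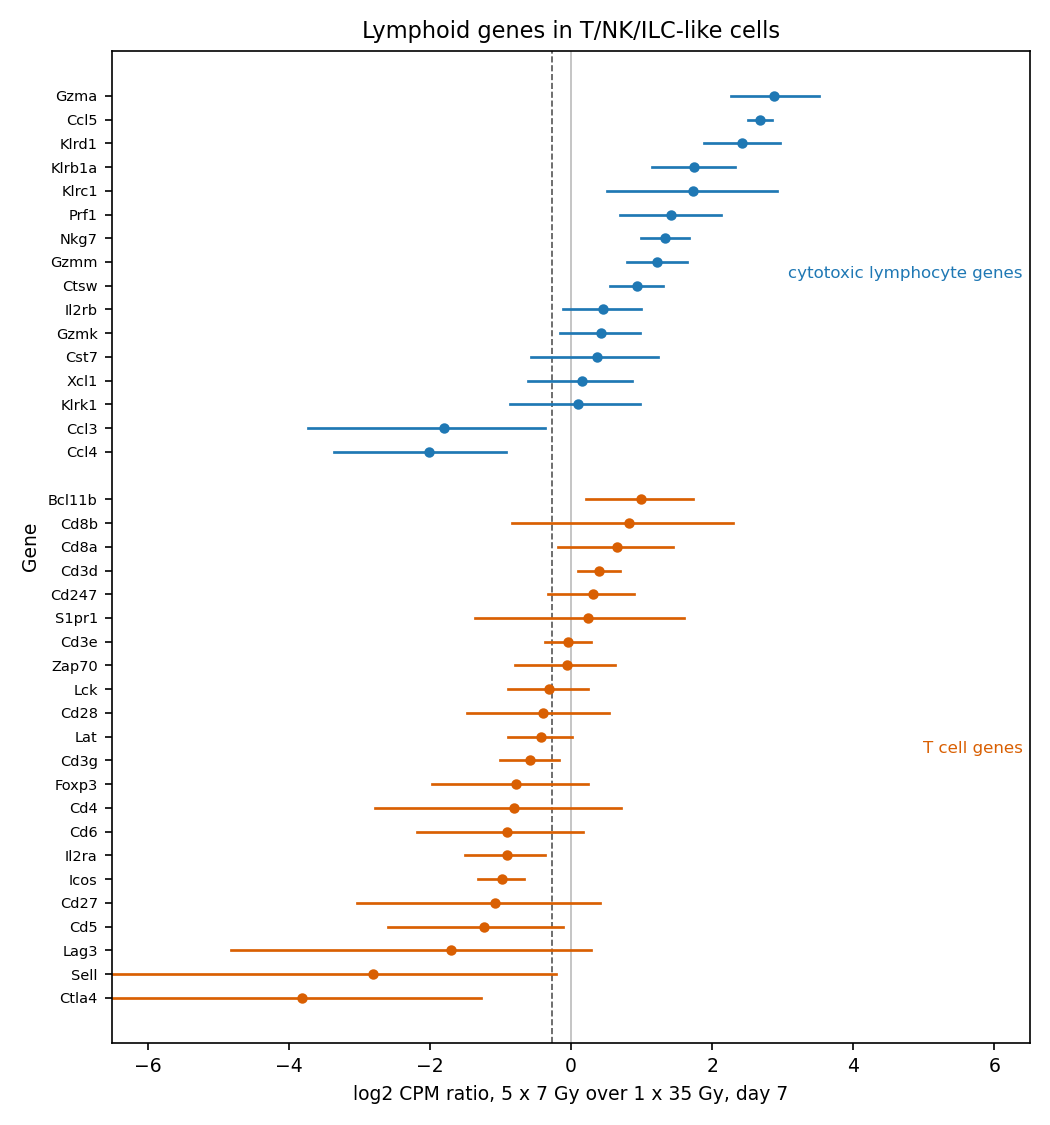
Log2 ratio, fractionated over single dose, of cytotoxic and T cell genes in the T, NK and innate lymphoid cluster, points with exact 95% intervals (cut at the axis limit) and a dashed line at the median of all genes (-0.27). Gzma (2.88), Ccl5 (2.68) and Klrd1 (2.42) lie to the right, and Cd3e is at -0.04.

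The dendritic-like cluster was led by the MHC class II genes RT1-Ba, RT1-Bb and RT1-Da with Cd74, Ly86 and Napsa. By their own markers 265 of its 453 cells after fractions (58.5%) and 179 of 302 after the single dose (59.3%) were dendritic, and 27.6% and 25.5% were closer to macrophages or monocytes. The cluster is therefore a mix of similar makeup in both libraries, and its name rests on MHC class II genes that macrophages and B cells also express. Of 5191 genes 51 were higher after fractions (0.982%) and 208 lower (4.01%), with 35 and 118 left after the free RNA requirement. Scaling by the median of ratios gave 100 higher and 108 lower. Summed neutrophil markers in the cluster were at 80.1 CPM after fractions and 394 after the single dose (5 and 11 of 12 detected), epithelial markers at 1075 and 598, and macrophage markers at 11340 and 15290. Their part in the differences was not tested.

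MHC class II was at a similar or higher level after fractions. RT1-Da, an alpha chain, was at 12220 CPM after fractions and 11160 after the single dose, Cd74, the invariant chain, at 20280 and 17600, and RT1-Ba at 6814 and 4216. RT1-Bb, a beta chain, was at 3905 after fractions, 864 after the single dose, 5809 at 0 Gy and 1592 at day 14, a log2 ratio of 2.18 (2.10 to 2.26). It was the 1 of 9 measured class II genes past 2-fold, where 0.937% of 7687 genes were higher and 3.1% lower. MHC genes have near-identical relatives in the rat, and no source used here says how the authors' counting shared reads between them. RT1-A1, of class I, was at 432 and 135.

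Genes of the cross-presenting dendritic subset (cDC1) had a median of 0.57 over 13 measured, 2 higher and 1 lower past 2-fold, where 0.937% of all genes were higher and 3.1% lower. Xcr1, the chemokine receptor that marks the subset, had 31 UMIs after fractions and 1 after the single dose, a ratio of 61.4 (10.2 to 2503), with 0 UMIs at 0 Gy in 7 cells. Clec9a, its receptor for dead cells, was at 65.8 and 44.3 CPM, a log2 ratio of 0.57 (0.10 to 1.04), and Tlr3, the double-stranded RNA sensor, at 103 and 38.5. Irf8, the factor the subset needs, was at 266 and 219. Within the cluster Xcr1 therefore differed far more than the other genes of its list. Over all barcodes Xcr1 had 34 UMIs after fractions and 6 after the single dose (0.569 and 0.0547 CPM). Most of its single-dose UMIs thus lay outside the cluster, and the contrast was smaller over the whole libraries. Axl, a receptor for dying cells, was at 194 and 38.0, and Cd207, langerin, had 62 and 27 UMIs, a log2 ratio of 2.19 (1.51 to 2.90). The share of cells with an Xcr1 or Clec9a UMI was 3.53% and 2.32% after thinning and 10.2% and 14.6% before, an order that turns with depth, and no difference is read from it.

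Maturation genes of dendritic cells leaned lower after fractions. Of 15 measured, 0 were higher and 4 lower past 2-fold, with a median of -1.01, where 0.937% of all genes were higher and 3.1% lower and the median was -0.22. Ccl17 and Ccl22, chemokines of mature dendritic cells, had 12 and 1 UMIs after fractions and 132 and 34 after the single dose. Il4i1, an enzyme of the mature state, had 2 UMIs against 96. Ccr7, Fscn1, Cacnb3 and Siglech of the dendritic markers had 0 UMIs after fractions, so 16 of 20 markers were detected there and 20 of 20 after the single dose. Cd83, on the same list, went the other way at 37.2 and 23.1 CPM. Of 11 measured genes of the other conventional subset (cDC2) 0 were higher and 1 lower, with a median of -0.31, or 0.09 over those that passed the free RNA requirement. Clec10a, a lectin of that subset, was at 310 and 696. Of 26 measured monocyte and macrophage genes 0 were higher and 4 lower, with a median of -0.53, against the same 0.937% and 3.1% of all genes, and C1qa, a complement component of tissue macrophages, was at 1533 and 2329. Proliferation genes leaned the same way, with medians of -0.72 over 24 S phase and -0.79 over 30 G2/M genes, both of which turned positive (0.20 and 0.13) when cells were classed by their own markers.

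**Figure D5:**
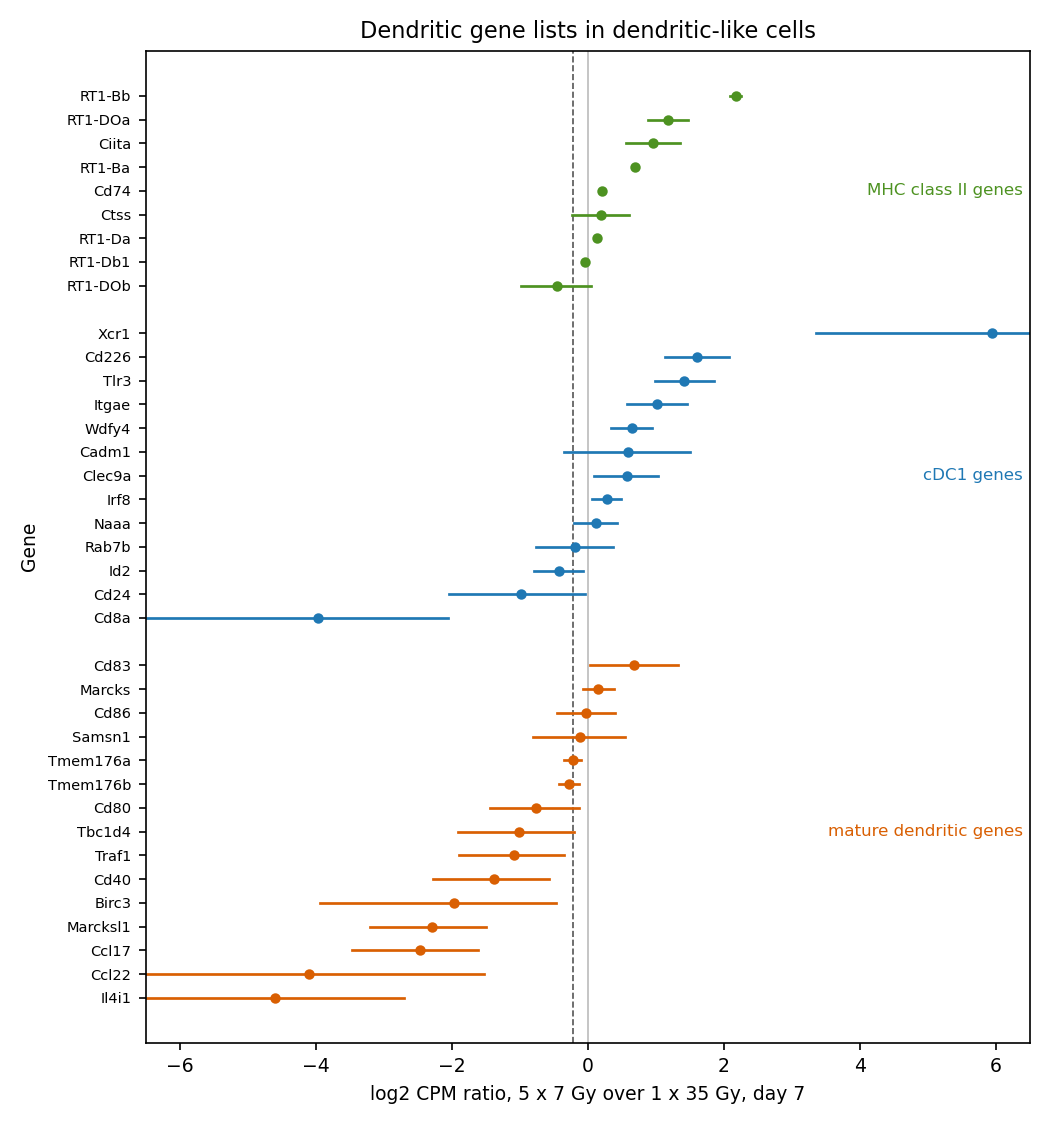
Log2 ratio, fractionated over single dose, of MHC class II, cDC1 and maturation genes in the dendritic-like cluster, points with exact 95% intervals (cut at the axis limit) and a dashed line at the median of all genes (-0.22). Xcr1 lies farthest to the right (5.94, on 31 and 1 UMIs), and Ccl22 (-4.10) and Ccl17 (-2.47) lie to the left.

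Immediate-early and stress genes were also lower in the dendritic-like cluster, 12 of 21 and 5 of 13 (heat shock) past 2-fold. Of all genes with 20 UMIs in the cluster 3.1% were lower. Fosb was at 4.77 CPM after fractions, 243 after the single dose, 4125 at 0 Gy and 2277 at day 14, and Gadd45b, a stress-induced gene, at 26.7, 322, 662 and 354. Hspa5, the main chaperone of the endoplasmic reticulum, was at 186 and 719, where mural cells had 196 and 723. A small unnamed cluster with Siglech, Irf8, Blnk, Ighm and Ptcra among its leading genes held 16 cells (0.180%) after fractions and 62 (0.655%) after the single dose, a ratio of 0.275 (0.148 to 0.482), with 0 cells at 0 Gy and 6 at day 14. Siglech and Ptcra are genes of plasmacytoid dendritic cells, but the markers fixed for naming did not name the cluster.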

How the data were processed

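The authors deposited, per sample, a 10x matrix of raw UMI counts per gene and barcode. Per the submitters' processing notes the counting tool was Cell Ranger 5.0.0, with rn7 and mRatBN7.2 named as builds. No source used here names the release of the annotation. Barcodes with at least 500 UMIs, 200 genes and at most 20% mitochondrial UMIs were kept, and doublets called by scrublet (2.22% and 2.84% of the fractionated and single-dose barcodes) and clusters made of them were removed. Of 32623 features, 2606 shared a symbol and were summed into 30017 symbols. Cells of all 4 libraries were clustered together with scanpy 1.11.5 (log-normalised to 10000, 2000 variable genes, 30 principal components, 15 neighbours, Leiden resolution 1.0). Of 35 clusters, 26 were named from marker lists, 3 were doublets and 6 stayed unnamed. The margin of 0.25 between the best and the second name, and the rule that gave the glial name to the cluster whose leading genes were glial, were set after the data were seen. UMIs were then summed per class and library and compared as CPM with exact conditional binomial 95% intervals. Shares have Clopper-Pearson intervals. A fold against 0 UMIs is taken against 3 counts in the class. With 1 library per group no test across samples exists.

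Genes named were, per class, the 8 higher and 8 lower with the interval bound farthest from 1 among genes with at least 50 UMIs that passed the free RNA requirement, up to 4 members of each list, and the class markers. Some further genes were named after their values were seen: Csf1, Nfkb1, Actb, Hspa5, Ifi27l2b, Cd83, Il17a, Pdgfrb, and the promoters shown. The members and lists were chosen with earlier results of these data known. Of 779 list symbols 44 had no match in the files. Alternatives were stricter filters, no mitochondrial limit, doublets kept, other scaling, the 2 libraries clustered alone, cells classed by own markers and other minima. Some of the genes the naming rule chose are not reported here. The scripts were tested on simulated data. Sequences came from the RefSeq promoter table.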

Additional observations from a re-analysis of the deposited data

How the results depend on the processing

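No paired analysis was possible because each group is 1 library, and no library could be left out. Of the recomputed values, 32 share ratios, 88 counts of genes and 568 list medians stayed near the values above, 10, 30 and 20 moved, and 1, 0 and 7 reversed. With at least 1000 UMIs and at most 10% mitochondrial UMIs the share ratios were 0.676 (mural), 0.274 (glial), 0.691 (satellite) and 0.560 (T, NK and innate lymphoid), and glial genes could not be counted. Classed by own markers, cells gave 0.533 (glial), 0.294 (lymphatic) and 0.830 (dendritic-like, reversed), and without a mitochondrial limit lymphatic cells gave 0.271. Counted among cells neither epithelial nor immune, mural cells gave 1.149, and among immune cells the lymphoid cells gave 4.489 and the dendritic-like cells 9.129. Scaling by the median of ratios, which shifts the median of all genes by 0.20 to 0.29 in 4 classes and by 0.05 in mural cells, changed the counts of higher and lower genes to 194 and 198 (mural), 27 and 40 (glial), 22 and 41 (satellite), 29 and 42 (lymphoid) and 100 and 108 (dendritic-like). The free RNA requirement left 3 higher and 28 lower in glial, 6 and 32 in satellite, 28 lower in lymphoid and 118 lower in dendritic-like cells. A rule added after seeing the data set it against every cluster with at least 100 cells. This left 114 and 123 in mural, 2 and 21 in glial, and 6 and 23 in satellite cells. It left 26 lower in lymphoid, and 33 and 104 in dendritic-like cells. With no minimum of UMIs the higher genes were 299, 59, 44, 26 and 89 in mural, glial, satellite, lymphoid and dendritic-like cells. Higher glial genes were 8 with doublets kept, 9 with the 2 libraries clustered alone, 6 with cells weighted equally and 77 (145 lower) by own markers, and higher lymphoid genes were 23 with doublets kept. List medians that reversed were glial myelin (-0.65, own markers), satellite NRF2 targets (0.073, free RNA), lymphoid NRF2 targets (0.11, doublets kept), dendritic-like S phase (0.20) and G2/M (0.13) genes by own markers, and cDC2 genes (0.085 under both free RNA rules). The cause of these moves was not tested, apart from fewer or more genes counted by the requirement or the minimum. Depth limits the glial, satellite and lymphatic values most, with 66, 78 and 18 cells after fractions.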
